A study of Arabidopsis thaliana with 21 samples.

Results

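The genes described here are 10 nuclear loci of leaf iron storage and iron homeostasis in Arabidopsis thaliana, out of 33341 loci in the deposited count files. They are the 4 ferritin genes FER1 (AT5G01600), FER2 (AT3G11050), FER3 (AT3G56090) and FER4 (AT2G40300), the ferric reductase genes FRO6 (AT5G49730) and FRO7 (AT5G49740), NEET (AT5G51720), and the transcription factor genes BHLH38 (AT3G56970), BHLH39 (AT3G56980) and BHLH100 (AT2G41240). The set was named by locus identifier, with results of these libraries already known. FER1 and FRO6 were known from high against standard light at 2 h, and NEET from high against standard light at 5 h. For that reason the 10 genes are given without a p-value wherever a 2 h or 5 h group enters, and are tested only among the 8 h and dark groups.

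The samples were whole rosettes of wild-type Col-0 plants, 3 weeks old and soil-grown in a day of 16 h of light at 22 °C. Rosettes were taken at the end of the night (dark, 0 h, labelled T0D), under high light of 500 µE for 2, 5 or 8 h (T2H, T5H, T8H), and under standard light of 100 µE for the same times (T2L, T5L, T8L). Each of the 7 groups has 3 libraries, described as biological triplicates, and no genotype other than wild type was used. The labels do not say how many plants make up a sample, and p-values measure spread among samples only. The series text mentions 6 growth chambers and does not say which held which sample, so a chamber effect cannot be told apart from light level. Time of day and hours of light move together in this design and cannot be told apart, and a rosette mixes many cell types, so fewer cells of a type and less RNA per cell cannot be told apart either.

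Ferritins are plastid-targeted protein shells that store iron in a mineral form and so keep free iron from reacting with oxygen species. FRO6 and FRO7 belong to the ferric chelate reductases, membrane proteins that reduce ferric to ferrous iron; FRO7 is known from the chloroplast and FRO6 from the surface of leaf cells. NEET is a small protein that holds an iron-sulphur cluster and takes part in iron and oxygen-species balance in plastids and mitochondria. BHLH38, BHLH39 and BHLH100 are basic helix-loop-helix factors best known as strongly induced by iron deficiency. In Arabidopsis, ferritin genes are known to be repressed when iron is scarce and to be induced by excess iron and by oxidative stress.

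The libraries held 6545003 to 31449700 counts (median 13592728), and a floor of 3 counts was 0.106 to 0.454 CPM (counts scaled to a library total of 1e6 after TMM scaling). The smallest was standard light 2 h replicate 1. Ribosomal RNA took 0.0423% to 32.9% of the counts of a library, and the highest share was in high light 5 h replicate 3. That share averaged 23.0 ± 3.59% in high light at 8 h and 5.38 ± 2.75% in standard light at 8 h (SD, n = 3 each), so that it moves with the light level at 8 h. FER3 and NEET kept their 8 h calls when the share was added to the fit. The shares at 8 h did not overlap (19.0 to 26.0% in high light, 3.58 to 8.55% in standard light). That fit therefore cannot fully tell the share apart from the light level at 8 h. Leaf marker genes (RBCS1A, LHCB1.3, RCA, LHCA3 and HCEF1) averaged 269 to 11255 CPM in every group. No root marker gene (MYB36, CASP1, PER64, EXPA7, COBL9 or ADF8) had more than 11 counts in any library.

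The ferritin coding sequences were 71.5% to 79.8% identical at aligned bases, with FER3 and FER4 the closest pair. FRO6 and FRO7 lie on the same strand with 706 bases between them, and their coding sequences were 93.9% identical. Of the 75-base stretches of the FRO6 span, as long as a read, 15.1% occur elsewhere in the genome, and 15.5% of those of FRO7 do, so counts of this pair are uncertain to that extent. No such stretch of the other 8 genes does. The 250 bases before the annotated start of a gene were read from the TAIR10.1 assembly, in which the coordinates of all 10 genes are those of the count files. They are shown because FER1 and FER3 differ in them, and because FRO6 and FRO7 carry near-copies: 193 of 227 aligned bases were the same. Any link of these bases to RNA levels was not tested. Capitals mark matches to CACGTG (the G-box) or AAAATATCT (the evening element), on either strand.
FER1 (chr5:230052-230301, minus strand): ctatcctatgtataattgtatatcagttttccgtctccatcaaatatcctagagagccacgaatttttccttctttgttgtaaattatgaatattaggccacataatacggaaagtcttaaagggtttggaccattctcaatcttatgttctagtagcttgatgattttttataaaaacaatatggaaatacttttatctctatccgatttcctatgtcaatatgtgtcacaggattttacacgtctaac
FER3 (chr3:20816036-20816285, minus strand): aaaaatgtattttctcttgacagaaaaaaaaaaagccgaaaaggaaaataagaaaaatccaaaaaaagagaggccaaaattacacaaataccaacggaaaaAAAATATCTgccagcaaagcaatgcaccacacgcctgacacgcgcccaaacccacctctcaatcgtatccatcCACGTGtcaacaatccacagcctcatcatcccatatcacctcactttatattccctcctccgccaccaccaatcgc
FRO6 (chr5:20204596-20204845, minus strand): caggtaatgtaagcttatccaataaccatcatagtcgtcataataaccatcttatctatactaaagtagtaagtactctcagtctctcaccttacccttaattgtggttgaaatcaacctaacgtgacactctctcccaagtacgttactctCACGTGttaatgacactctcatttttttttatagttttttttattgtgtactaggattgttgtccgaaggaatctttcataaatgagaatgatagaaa
FRO7 (chr5:20208778-20209027, minus strand): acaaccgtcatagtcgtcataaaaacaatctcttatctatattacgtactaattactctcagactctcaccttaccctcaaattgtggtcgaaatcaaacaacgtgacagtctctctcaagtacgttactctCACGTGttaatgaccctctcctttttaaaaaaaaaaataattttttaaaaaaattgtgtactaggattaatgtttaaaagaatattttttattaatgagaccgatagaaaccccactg
NEET (chr5:21009097-21009346, plus strand): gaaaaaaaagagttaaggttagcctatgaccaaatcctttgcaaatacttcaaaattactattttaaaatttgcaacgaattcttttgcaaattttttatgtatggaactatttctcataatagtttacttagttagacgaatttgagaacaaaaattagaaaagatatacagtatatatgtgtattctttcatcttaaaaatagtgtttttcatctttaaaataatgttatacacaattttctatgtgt

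Windows of 9 of the 10 genes were searched. CACGTG stood in 5 of them (FER3, FRO6, FRO7, BHLH38 and BHLH100), against 6.49% of the windows of 27431 nuclear protein-coding genes. In FER3 it began 76 bases before the start. In FRO6 and FRO7 it began 98 and 118 bases before the start. FER1, FER2, NEET and BHLH39 had none of the 4 motifs searched in this window. CACGAG was in 2 of the 9 windows (BHLH38 and BHLH100) and in 4.16% of all windows, AAAATATCT was in FER3 alone of the 9 and in 2.36%, and GNATATNC was in none of the 9 and in 5.45%. The motifs do not overlap each other in these genes. They are matches of letters, not tests of binding.

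FER1, on chromosome 5 at 227953 to 230051, was the most abundant ferritin per kilobase of span in every group and had its highest level after 2 h of high light. The 2 h high light libraries had 655, 544 and 366 CPM (9773, 7909 and 4636 counts), against 77.2, 60.6 and 63.2 CPM in standard light. Every high light library was above every standard light library, a ratio of means of 7.79 and a log2 fold change of 2.96 ± 0.29 (SE). FER1 was chosen on this contrast, so the values are a description. At 5 h the high light libraries had 224, 133 and 120 CPM, against 18.9, 35.4 and 31.9 CPM in standard light, a log2 fold change of 2.47 ± 0.28 with no overlap. The lowest 5 h high light library thus lay above the highest standard light library at every time.

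At 8 h the difference was small. The high light libraries had 36.1, 31.7 and 23.5 CPM and the standard light libraries 26.5, 14.7 and 20.6 CPM. The groups overlapped, and the log2 fold change of 0.57 ± 0.28 did not pass the test (edgeR quasi-likelihood test, Benjamini-Hochberg adjusted p = 0.177). A fit to these 2 groups alone gave an adjusted p of 0.0474. Along the dark and standard light series FER1 averaged 115 ± 17.9 CPM in the dark, 67.0 ± 8.94 CPM at 2 h, 28.7 ± 8.70 CPM at 5 h and 20.6 ± 5.90 CPM at 8 h (SD, n = 3). At 8 h it was lower than in the dark in high light (log2 fold change -1.92 ± 0.28, adjusted p = 4.09e-06) and in standard light (-2.48 ± 0.28, adjusted p = 1.52e-07). Both contrasts use the same dark libraries.

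In order of mean level, FER1 was highest in high light at 2 h, then in high light at 5 h, the dark, standard light at 2 h, high light at 8 h, standard light at 5 h and standard light at 8 h. The libraries of high light at 5 h and the dark overlapped, as did the neighbours among the last 3 groups. The 5 h high light mean was 159 ± 56.8 CPM and the dark mean 115 ± 17.9 CPM.

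FER3, on chromosome 3 at 20813904 to 20816035, was the only ferritin whose libraries were separated by light level at all 3 times. At 2 h, high light gave 60.6, 46.9 and 40 CPM and standard light 15.7, 23.7 and 24.6 CPM (log2 fold change 1.19 ± 0.20). At 5 h, high light gave 32.7, 31.1 and 32.6 CPM and standard light 16.7, 20.3 and 16.1 CPM (0.86 ± 0.20). At both times all 3 high light libraries were above all 3 standard light libraries, and the 5 h high light libraries lay within 2 CPM of each other.

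At 8 h FER3 had 24.3, 19.5 and 23.6 CPM in high light, against 16.4, 11.4 and 10.9 CPM in standard light. It was higher in high light by 0.80 ± 0.21 on the log2 scale (adjusted p = 0.00882). The call rested on standard light replicates 2 and 3: the adjusted p was 0.0601 without standard light replicate 2 and 0.0626 without standard light replicate 3. Unlike FER1, FER3 had its lowest mean in the dark, with 10.8, 8.54 and 10.6 CPM. It was higher after 8 h of high light than in the dark (1.17 ± 0.21, adjusted p = 5.17e-05), and the smaller difference of 0.37 ± 0.21 for 8 h of standard light did not pass (adjusted p = 0.160).

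FER4, on chromosome 2 at 16831109 to 16833294, did not separate the light levels at any time. The 2 h high light libraries had 23.0, 27.3 and 19.3 CPM and the 2 h standard light libraries 8.78, 19.5 and 14.1 CPM, an overlap of 19.3 with 19.5 CPM (log2 fold change 0.70 ± 0.28). The means at 5 h were 9.88 ± 3.76 CPM in high light and 9.51 ± 1.78 CPM in standard light. At 8 h they were 10.7 ± 1.12 and 10.3 ± 3.08 CPM, a log2 fold change of 0.05 ± 0.29 (adjusted p = 0.944). Against the dark (21.5, 16.9 and 22.4 CPM), FER4 was lower after 8 h of high light (-0.93 ± 0.28, adjusted p = 0.00927) and of standard light (-0.97 ± 0.28, adjusted p = 0.0071). The call for high light had an adjusted p of 0.0625 without high light replicate 1 and 0.0606 in a fit that adjusts for ribosomal RNA, and that for standard light 0.0597 without standard light replicate 2.

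In order of mean level, FER3 was highest in high light at 2 h, then in high light at 5 h and at 8 h, standard light at 2 h, 5 h and 8 h, and the dark. Neighbouring groups overlapped from high light at 8 h down to standard light at 8 h. FER4 had overlapping neighbours throughout its order, which went from 23.2 ± 4.02 CPM in high light at 2 h to 9.51 ± 1.78 CPM in standard light at 5 h.

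FER2, on chromosome 3 at 3463477 to 3465506 and best known from seeds, did not pass the filter on low counts. It had 0 to 14 counts in a library. The 3 dark libraries had 0, 1 and 0 counts and the 3 libraries of 2 h high light 6 counts each. No fold is given for it.

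**Figure D1:**
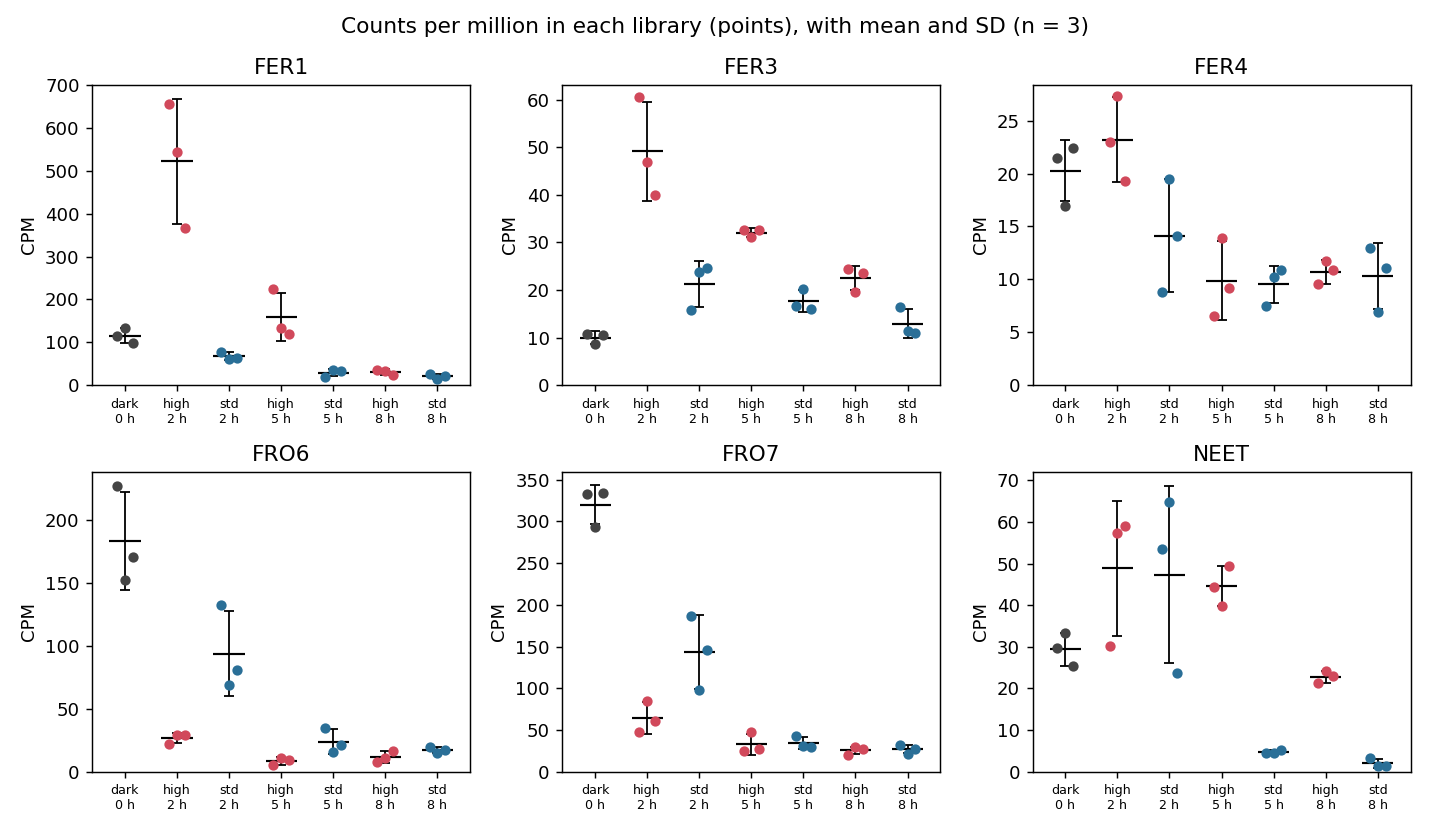
CPM (vertical axes, linear, from 0) of FER1, FER3, FER4, FRO6, FRO7 and NEET in the dark and after 2, 5 and 8 h of high and standard light; each point is a library, bars are the mean with the SD of 3 libraries, and std marks standard light. FER1 stands at 366 to 655 CPM in the 2 h high light libraries, and FRO6 and FRO7 are highest in the dark.

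The make-up of the ferritin pool moved with FER1. Per kilobase of gene span, the 4 genes summed to 283 ± 75.1 CPM per kb after 2 h of high light and 48.5 ± 0.511 CPM per kb after 2 h of standard light. At 5 h the sums were 95.6 ± 26.0 CPM per kb in high light and 26.5 ± 5.49 CPM per kb in standard light, and at 8 h 30.0 ± 2.97 and 20.8 ± 5.32 CPM per kb. The dark gave 68.9 ± 6.80 CPM per kb. FER1 made up 87.8 ± 1.35% of the sum after 2 h of high light and 65.9 ± 9.25% after 2 h of standard light. At 5 h it made up 78.2 ± 6.13% in high light and 51.0 ± 5.92% in standard light, and at 8 h 47.9 ± 6.01% and 46.9 ± 1.88%. FER3 had the second share at 8 h, with 35.3 ± 4.89% in high light and 29.5 ± 4.59% in standard light, whereas it had 6.90 ± 1.42% in the dark. Because introns lie inside the span, these are shares of reads per length of gene and not of mature transcripts.

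**Figure D2:**
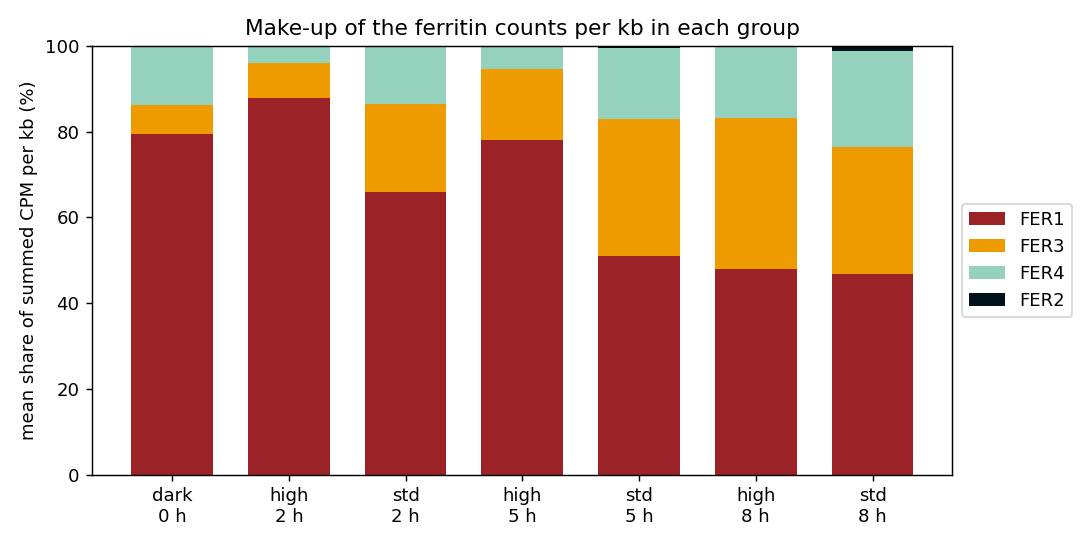
Mean share (%) of each ferritin gene in the summed CPM per kb of span of the 4 ferritin genes, by group (mean of 3 libraries, stacked bars). FER1 makes up 87.8% after 2 h of high light and 46.9% after 8 h of standard light, and FER2 is too low to be seen in most bars.

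FRO6, on chromosome 5 at 20201037 to 20204595, was highest in the dark and lower in high light than in standard light at 2 h and 5 h. It had 22.3, 29.0 and 29.4 CPM after 2 h of high light, against 132, 68.8 and 80.5 CPM in standard light. The log2 fold change was -1.80 ± 0.32, with no overlap. FRO6 was chosen on this contrast. At 5 h it had 5.29, 11 and 9.32 CPM in high light, against 34.7, 15.6 and 21.1 CPM in standard light (-1.50 ± 0.33, no overlap).

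At 8 h the FRO6 values were 7.46, 11.2 and 16.8 CPM in high light and 19.7, 14.8 and 17.0 CPM in standard light. They overlapped, and the log2 fold change of -0.57 ± 0.33 did not pass (adjusted p = 0.265). The dark libraries had 227, 152 and 171 CPM. Relative to the dark, FRO6 fell by 3.99 ± 0.35 on the log2 scale after 8 h of high light (adjusted p = 5.05e-09) and had a log2 fold change of -3.42 ± 0.34 after 8 h of standard light (adjusted p = 3.6e-08).

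FRO7, the tandem neighbour of FRO6 at 20205302 to 20208777, was the most abundant of the 10 genes per kilobase of span in the dark. Its libraries were separated by light level at 2 h, with 47.3, 84.9 and 61.4 CPM in high light and 187, 97.8 and 146 CPM in standard light (-1.15 ± 0.26, no overlap). They overlapped at 5 h, when it averaged 33.0 ± 12.6 CPM in high light and 34.4 ± 7.58 CPM in standard light, and again at 8 h. The 8 h values were 20.6, 29.6 and 26.7 CPM in high light and 31.5, 21.6 and 27.7 CPM in standard light, a log2 fold change of -0.08 ± 0.26 (adjusted p = 0.891). The dark libraries had 333, 293 and 334 CPM, far above all 8 h libraries. Relative to them, FRO7 fell by 3.65 ± 0.29 on the log2 scale after 8 h of high light (adjusted p = 2.29e-10) and by 3.57 ± 0.28 after 8 h of standard light (adjusted p = 3.78e-10).

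In order of mean level, both reductase genes were highest in the dark, then in standard light at 2 h and in high light at 2 h, and the libraries of these 3 groups did not overlap between neighbours. Below them, neighbouring groups overlapped for both genes, down to 8.54 ± 2.94 CPM for FRO6 in high light at 5 h and 25.7 ± 4.59 CPM for FRO7 in high light at 8 h.

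Per kilobase, the FRO6 share of the pair's sum in high light was 29.5 ± 3.88% at 2 h, 20.4 ± 4.14% at 5 h and 30.3 ± 6.64% at 8 h. It was 38.5 to 39.4% in the 3 standard light groups and 35.7 ± 3.75% in the dark. The sum of both genes was 26.1 ± 6.34 CPM per kb in high light and 67.6 ± 21.9 CPM per kb in standard light at 2 h, against 144 ± 16.4 CPM per kb in the dark. The shared stretches limit how exactly the pair can be split, and the labels and headers do not say how reads that fit both genes were counted.

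NEET, on chromosome 5 at 21009347 to 21010345, had overlapping light levels at 2 h and separate ones at 5 h and 8 h. At 2 h it had 30.1, 57.3 and 59.1 CPM in high light and 53.6, 64.9 and 23.6 CPM in standard light, with wide overlap (log2 fold change 0.05 ± 0.29). At 5 h, the contrast on which NEET was chosen, it had 44.4, 39.9 and 49.5 CPM in high light, against 4.49, 4.41 and 5.17 CPM in standard light. The ratio of means was 9.50 and the log2 fold change 3.24 ± 0.33.

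The 8 h libraries gave 21.3, 24.2 and 23.1 CPM for NEET in high light, against 3.29, 1.28 and 1.48 CPM in standard light. It was higher in high light by 3.50 ± 0.36 on the log2 scale, a ratio of means of 11.3 (adjusted p = 3.22e-06), and the call stood whichever library of the 2 groups was left out. In the dark it had 29.6, 33.3 and 25.4 CPM. After 8 h of high light the difference from the dark, -0.37 ± 0.30, did not pass (adjusted p = 0.323), although all 3 high light libraries were below all 3 dark libraries. That separation holds for TMM-scaled CPM only. Totals of nuclear protein-coding counts raise CPM 2.38 times in high light at 8 h and 1.76 times in the dark, and the libraries then overlap. After 8 h of standard light NEET was lower by 3.87 ± 0.36 on the log2 scale (adjusted p = 9.42e-09). In order of mean level, the 3 highest groups (high light at 2 h, standard light at 2 h and high light at 5 h) overlapped. The dark and the lower groups each stood apart from the groups next to them in this order. The dark libraries did overlap those of both 2 h groups, and the 8 h high light libraries overlapped those of 2 h standard light. In standard light the NEET mean was 47.4 ± 21.3 CPM at 2 h, 4.69 ± 0.419 CPM at 5 h and 2.02 ± 1.11 CPM at 8 h.

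**Figure D3:**
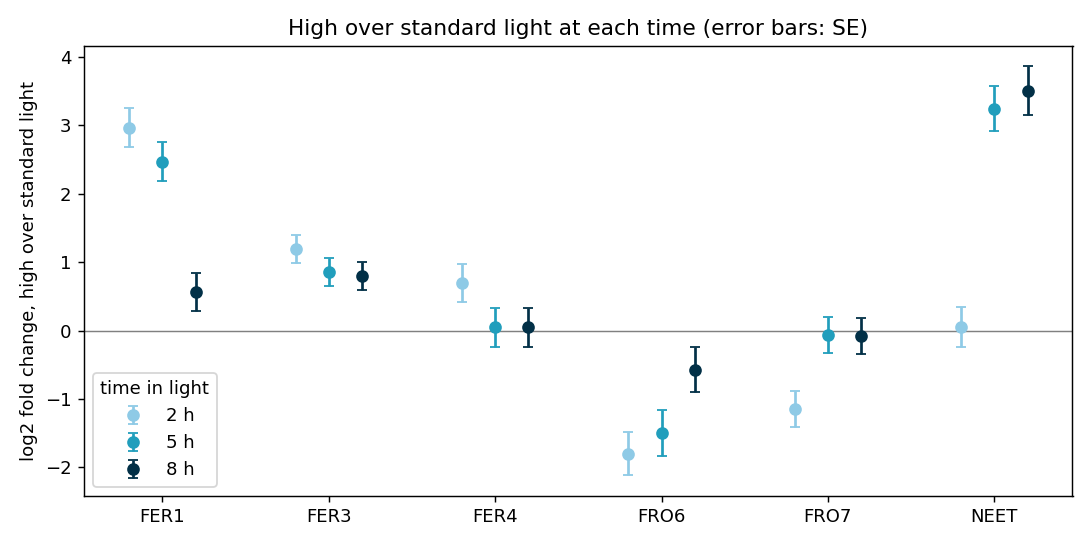
log2 fold change of high over standard light (vertical axis) at 2, 5 and 8 h for 6 genes, from 1 fit to all 21 libraries; error bars are SE. FER1 runs 2.96, 2.47 and 0.57, and NEET runs 0.05, 3.24 and 3.50. FER1 and FRO6 were chosen on the 2 h contrast and NEET on the 5 h contrast, and differences between times were not tested.

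The iron deficiency factors were near the floor. BHLH38 had 0 to 24 counts in a library and BHLH39 0 to 23 counts, and neither passed the filter on low counts. Their highest counts, and 22 counts of BHLH100, fell in the same library, standard light 2 h replicate 3, whereas the other 2 libraries of that group had 0 and 0 counts of BHLH38 and 0 and 2 of BHLH39. BHLH38 and BHLH39 are neighbours on the same strand with 1144 bases between them, and no 75-base stretch of either occurs elsewhere in the genome.

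BHLH100 passed the filter. It had 26, 8 and 32 counts after 8 h of high light, 1, 22 and 21 counts after 8 h of standard light, and 3, 0 and 6 counts in the dark. The 2 h high light libraries had 0 counts each, which allows up to 0.201, 0.206 and 0.237 CPM. High against standard light at 8 h gave a log2 fold change of 0.87 ± 1.12 (adjusted p = 0.676). High light at 8 h was higher than the dark by 3.12 ± 1.27 (adjusted p = 0.0481), a call with an adjusted p of 0.103 without dark replicate 1, 0.143 without dark replicate 2, 0.231 without high light replicate 3 and 0.151 in a fit that adjusts for ribosomal RNA. Standard light at 8 h against the same dark libraries gave 2.24 ± 1.26 (adjusted p = 0.158).

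**Figure D4:**
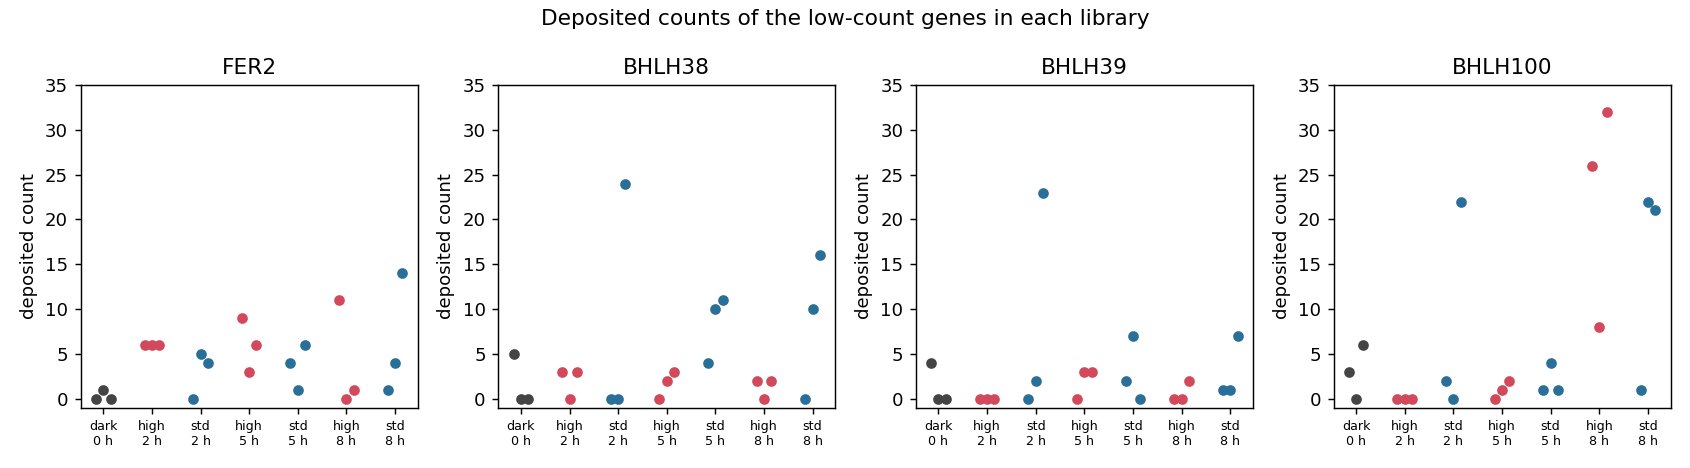
Deposited counts (vertical axis) of FER2, BHLH38, BHLH39 and BHLH100 in each library of the 7 groups; each point is a library. All counts are 32 or fewer, and the 24 counts of BHLH38 in standard light at 2 h are 1 library.

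Counted over the 10 genes, high against standard light at 8 h had 2 higher (FER3 and NEET) and 0 lower at an adjusted p under 0.05, with 5 not passing and 3 not tested. At an unadjusted p under 0.05 the edgeR fit had the same 2 and 0, and so did DESeq2. Of all 19626 loci tested, 7.79% were higher and 7.62% lower. For 8 h of standard light against the dark, 0 were higher and 5 lower (FER1, FER4, FRO6, FRO7 and NEET), where 21.1% of all loci were higher and 21.7% lower. The 0 higher stayed 0 at an unadjusted p under 0.05, and DESeq2 called 1 higher, FER2, which did not pass the filter of the edgeR fit. For 8 h of high light against the dark, 2 were higher (FER3 and BHLH100) and 4 lower (FER1, FER4, FRO6 and FRO7), where 23.4% were higher and 23.9% lower. As the genes were picked with earlier results known, these counts describe the genes and support nothing beyond them. In the authors' deposited table, NEET is the gene of the 10 listed for high against standard light at 8 h (log2 fold change 3.52), and FER3 is not listed there. That table is named for glmTreat, a test against a minimum fold change, and lists 603 loci for this comparison. The test used here is against no change and called 3025 loci, so the 2 differ in threshold.

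The genes whose course was most like that of FER1 over the 21 libraries, among 12078 nuclear protein-coding loci, were FTSH1 (AT1G50250, r = 0.973), FTSH8 (AT1G06430, r = 0.937) and BETA-OHASE 1 (AT4G25700, r = 0.916), by Pearson correlation of log2 CPM. FTSH1 and FTSH8 encode subunits of the thylakoid FtsH protease, and BETA-OHASE 1 a beta-carotene hydroxylase. FTSH8 averaged 382 CPM after 2 h of high light and 149 CPM after 2 h of standard light. For FRO6 they were RPT2 (AT2G30520, r = 0.954), CYSD2 (AT5G28020, r = 0.950) and the clock factor gene RVE1 (AT5G17300, r = 0.938), which averaged 492 CPM in the dark. For NEET they were AT1G64680 (r = 0.945), PDX1.1 (AT2G38230, r = 0.930) and PSRP6 (AT5G17870, r = 0.928). PDX1.1 averaged 80.0 CPM in high light and 9.20 CPM in standard light at 8 h. The points share libraries and their depth, and the values are descriptions.

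Other genes of the iron pathway were counted from 5 lists of 63 genes outside the 10, of which 52 passed the filter. At 8 h, 4 of the 52 (7.69%) were higher in high light and 3 (5.77%) lower, near the 7.79% and 7.62% of all loci, and the median log2 fold change was 0.06, against -0.03 over all loci. NFS1, the mitochondrial cysteine desulphurase that supplies sulphur for iron-sulphur clusters, had 73.2, 70.4 and 54.4 CPM in high light and 19.0, 23.7 and 21.0 CPM in standard light. It was higher in high light by 1.64 ± 0.31 on the log2 scale (adjusted p = 0.0011), with no overlap, and the call stood whichever library was left out. NAP7, the ATPase of the plastid SUF assembly machinery, averaged 42.8 ± 3.72 CPM in high light and 27.7 ± 4.43 CPM in standard light (0.63 ± 0.17, adjusted p = 0.0133; 0.1 without standard light replicate 3 and 0.0581 without high light replicate 1).

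Transporters of iron chelates went both ways at 8 h. YSL3, a yellow stripe-like transporter of metal complexes, had 22.8, 22.3 and 35.7 CPM in high light and 52.8, 60.8 and 47.8 CPM in standard light (-1.0 ± 0.27, adjusted p = 0.0129). That p was 0.0618 without standard light replicate 2, 0.094 without high light replicate 1 and 0.0901 without high light replicate 2. OPT3, a phloem transporter involved in signalling iron status from shoot to root, averaged 35.9 ± 3.49 CPM in high light and 64.5 ± 3.27 CPM in standard light (-0.84 ± 0.25, adjusted p = 0.021). It had 0.0727 without standard light replicate 2, and 0.0652, 0.113 and 0.0506 without high light replicate 1, 2 and 3. YSL1 averaged 15.3 ± 0.676 CPM in high light and 10.2 ± 1.35 CPM in standard light (0.57 ± 0.19, adjusted p = 0.036), and lost its call without standard light replicate 2 or 3 or any high light library, with an adjusted p of up to 0.145, and also in the fit that adjusts for ribosomal RNA (0.0546) and with no filter on low counts (0.0981).

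Among the helix-loop-helix regulators, BHLH34 was the gene called at all 3 times, but its calls at 2 h and 8 h were lost whichever 1 library of the groups compared was left out. It averaged 29.5 ± 2.75 CPM in high light and 15.7 ± 3.39 CPM in standard light at 2 h (0.90 ± 0.24, adjusted p = 0.0434, up to 0.19 without standard light replicate 1). At 5 h the values were 14.1, 13.9 and 14.1 CPM in high light and 5.13, 7.37 and 5.97 CPM in standard light (1.18 ± 0.25, adjusted p = 0.00331, a call that stood whichever library was left out). At 8 h they averaged 4.61 ± 0.346 and 2.60 ± 0.516 CPM (0.82 ± 0.28, adjusted p = 0.0449, up to 0.2 without standard light replicate 2, and 0.06 with no filter). ILR3, a factor of the same subgroup, averaged 16.1 ± 1.67 CPM in high light and 24.4 ± 1.86 CPM in standard light at 8 h (-0.60 ± 0.19, adjusted p = 0.0334), and lost its call whichever of the 6 libraries was left out (0.0508 to 0.167), and had 0.0583 in the fit that adjusts for ribosomal RNA.

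**Figure D5:**
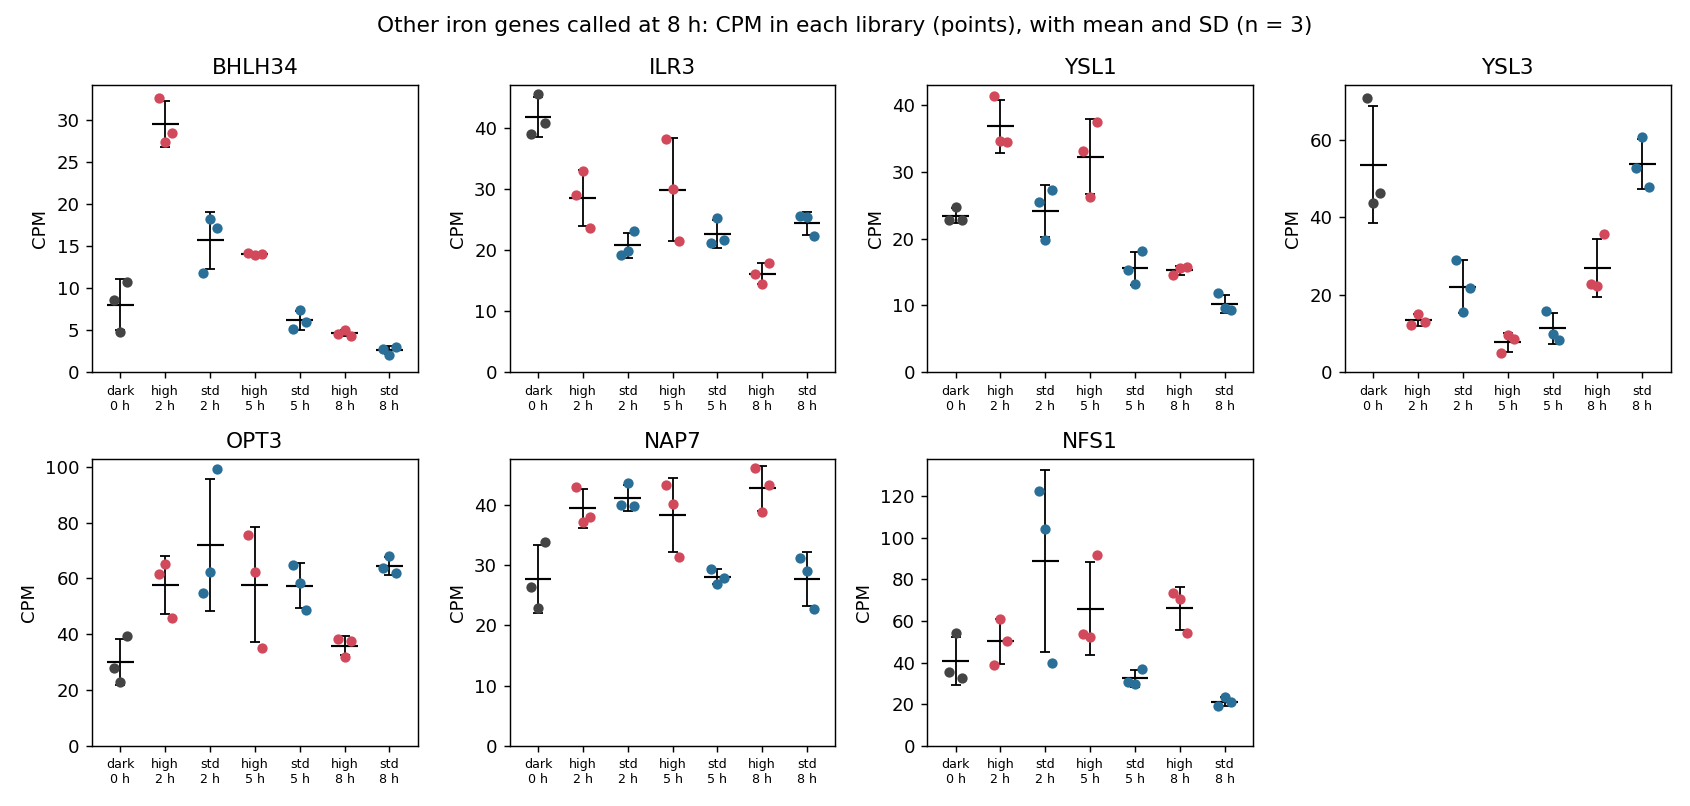
CPM (vertical axes, linear, from 0) of the 7 listed iron genes called between high and standard light at 8 h, in the dark and after 2, 5 and 8 h of each light level; points are libraries, bars the mean with the SD of 3 libraries. NFS1 stands at 54.4 to 73.2 CPM in the 8 h high light libraries and at 19.0 to 23.7 CPM in the 8 h standard light libraries.

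At 2 h, 1 of the 52 genes (1.92%) was higher in high light and 2 (3.85%) lower, beside 1.45% and 1.22% of all loci. The median log2 fold change was -0.06 over the 52 genes and -0.00063 over all loci. The higher gene was BHLH34. The lower ones were ZIF1, a vacuolar membrane transporter, with 10.5 ± 3.76 CPM in high light and 20.9 ± 4.35 CPM in standard light (-1.0 ± 0.27, adjusted p = 0.0445), and AT2G30766, with 7.55 ± 0.508 CPM and 19.3 ± 7.14 CPM (-1.36 ± 0.37, adjusted p = 0.0493). Neither was stable. AT2G30766 lost its call whichever of the 6 libraries was left out (up to 0.147, without standard light replicate 3), and ZIF1 passed without high light replicate 1 alone (up to 0.193, without high light replicate 2). With the ribosomal RNA share as covariate AT2G30766 had 0.229, ZIF1 0.259 and BHLH34 0.19.

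At 5 h, 3 of the 52 genes (5.77%) were higher in high light and 2 (3.85%) lower, beside 7.29% and 4.74% of all loci. The median log2 fold change was 0.0036 over the 52 genes and 0.02 over all loci. YSL1 had 33.1, 26.3 and 37.4 CPM in high light and 15.3, 13.2 and 18.1 CPM in standard light (1.05 ± 0.18, adjusted p = 0.000564), a call that stood whichever library was left out. NFS1 averaged 65.9 ± 22.2 CPM in high light and 32.4 ± 3.98 CPM in standard light (1.02 ± 0.30, adjusted p = 0.0322), and passed without high light replicate 2 alone, with an adjusted p of up to 0.123 (without high light replicate 3). NFU1, a plastid iron-sulphur scaffold gene, averaged 25.8 ± 3.20 CPM and 39.0 ± 2.46 CPM (-0.60 ± 0.17, adjusted p = 0.0188; 0.0806 without standard light replicate 3, 0.0821 without high light replicate 1 and 0.0672 without high light replicate 2). FH, for frataxin, averaged 3.14 ± 1.5 CPM and 6.90 ± 1.22 CPM (-1.19 ± 0.37, adjusted p = 0.0384), and passed without high light replicate 3 alone (up to 0.186, without high light replicate 1), with 0.0873 in the fit that adjusts for ribosomal RNA.

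After 8 h of standard light against the dark, 13 of the 52 genes (25%) were higher and 13 (25%) lower, beside 21.1% and 21.7% of all loci. The median log2 fold change was 0.02 over the 52 genes and 0.01 over all loci. Of the 8 regulators tested 0 rose and 5 fell, with a median of -0.67, and 0 were higher also at an unadjusted p under 0.05 and with DESeq2. They were led by bHLH121 with 16.1, 14.1 and 11.9 CPM, against 53.4, 62.2 and 52.4 CPM in the dark (-2.00 ± 0.20, adjusted p = 2.03e-08), BHLH34 (-1.61 ± 0.27, adjusted p = 2.75e-05) and BHLH104 (-1.10 ± 0.16, adjusted p = 6.27e-06). BHLH115, another of the 5, lost its call without 5 of the 6 libraries (up to 0.102). In a list of BTS and 5 further loci, 4 of 5 tested rose and 0 fell, with a median of 1.59; 0 were lower also at an unadjusted p under 0.05 and with DESeq2. AT2G30766 averaged 9.79 ± 2.91 CPM after 8 h of standard light and 3.23 ± 2.87 CPM in the dark (1.59 ± 0.39, adjusted p = 0.00199). AT1G47400 and AT1G47395 averaged 1.02 ± 0.0856 and 0.930 ± 0.374 CPM after 8 h of standard light and 0.0921 ± 0.160 CPM each in the dark. Their adjusted p was 0.0157 each, and each lost its call without dark replicate 2 (0.0638 and 0.0659) or dark replicate 3 (0.0624 and 0.0644), AT1G47395 also without standard light replicate 3 (0.0536).

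FRO8, another ferric reductase gene, known from mitochondria, ran opposite to FRO6 and FRO7. It had 30.4, 30.1 and 27.1 CPM after 8 h of standard light, against 4.90, 3.99 and 4.94 CPM in the dark (2.66 ± 0.23, adjusted p = 1.47e-09), and was the 1 gene of 5 uptake and reductase genes tested that passed (median 0.41). Of the 19 transport and storage genes tested 2 (10.5%) rose and 5 (26.3%) fell, beside 21.1% and 21.7% of all loci, with a median of -0.10. The falls were led by vacuolar iron transporter-like genes: VTL5 had 0, 0 and 5 counts after 8 h of standard light and 37, 62 and 53 counts in the dark (adjusted p = 0.00039), VTL2 averaged 0.624 ± 0.281 CPM and 5.72 ± 0.234 CPM (-3.17 ± 0.55, adjusted p = 4.4e-05), and VTL1 averaged 0.211 ± 0.172 CPM and 1.25 ± 0.450 CPM (adjusted p = 0.0374). VTL1 had 0.105 without dark replicate 2, 0.11 without standard light replicate 1 and 0.137 without standard light replicate 2. YSL2, another of the 5 that fell, lost its call without 4 of the 6 libraries (up to 0.138). It also lost it in the fit that adjusts for ribosomal RNA (0.0542).

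Of the 15 iron-sulphur cluster assembly genes 6 (40%) were higher and 3 (20%) lower after 8 h of standard light than in the dark, beside 21.1% and 21.7% of all loci, with a median of 0.35. Of the 6 higher, ISU1 lost its call whichever of the 6 libraries was left out (up to 0.137), and with no filter (0.122). CPNIFS lost it without 5 of the 6 libraries (up to 0.105), and NFU1 without dark replicate 2 (0.0573). Of the 3 lower, HCF101 lost it without dark replicate 3 (0.0799) or standard light replicate 3 (0.0622). NFU3, a plastid scaffold gene, had 13.8, 6.99 and 9.89 CPM, against 52.1, 55.6 and 55.3 CPM in the dark (-2.41 ± 0.23, adjusted p = 6.56e-09). CPISCA, for a plastid carrier protein of such clusters, averaged 34.5 ± 3.05 CPM after 8 h of standard light and 16.0 ± 4.47 CPM in the dark (1.11 ± 0.24, adjusted p = 0.000595). NFS1 averaged 21.2 ± 2.32 CPM and 40.6 ± 11.7 CPM (-0.94 ± 0.31, adjusted p = 0.0175), with 0.114 without dark replicate 2, 0.0653 without standard light replicate 1 and 0.0507 without standard light replicate 3. Like NEET, NFS1 was thus higher in high than in standard light at 8 h and lower in standard light than in the dark; the contrasts share the 8 h standard light libraries.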

How the data were processed

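RNA abundance was measured in 21 libraries of Arabidopsis rosettes. Per the labels' protocols, strand-specific total RNA libraries were made after depletion of plant ribosomal RNA; single-end reads of 75 bp were sequenced. The authors counted reads, per the file headers, with featureCounts 1.5.0-p1; these deposited counts were made in reverse-stranded mode over 1 span per locus, so reads in introns were counted. Tools in the submitters' processing notes also include edgeR, SAMtools 1.3.1, Subread 1.5.0, Trim Galore 0.4.4 and FastQC 0.11.7. No header or label names the build or the alignment settings. The authors' deposited table of comparisons holds log2 fold changes and adjusted p-values and is used as a description; the authors' deposited log2 RPKM table was not used.

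Counts were fitted over all 21 libraries, 1 coefficient per group, with edgeR 4.0.16 in R 4.3.3 (TMM scaling, filterByExpr, quasi-likelihood F test, 14 residual degrees of freedom). The filter kept 19626 loci, among them 7 of the 10 genes, and p-values were adjusted over all of these by Benjamini-Hochberg with a threshold of 0.05. CPM use TMM-scaled library totals; RefSeq's TAIR10.1 gave symbols, coordinates and sequences, with 32897 loci matched by locus tag. The sequence before the start of 1 of the 10 genes is not reported here. Floors cover counting error only, whereas the SD and SE given also hold the spread between libraries. Libraries of a group differed beyond sampling noise (chi-square over degrees of freedom of at least 8.21 in 21 pairs), so none was counted as 1 library deposited again; repeat libraries of one RNA sample would not be detected this way. Samples were grouped by their labels, and replicate numbers were not used to pair them.

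The genes and lists were chosen with earlier results of these data known. All 10 genes are named. Of the lists, the up to 3 called genes with the largest fold change are named per list and comparison, and for FER1, FRO6 and NEET the 3 loci with the highest correlation of log2 CPM (prior count 2, mean of at least 5 CPM). Further list genes are named where calls behind a count were unstable, and in the flagged results. Alternatives were RLE scaling, DESeq2 1.42.0, no filter, only the 2 groups compared, a ribosomal RNA covariate, nuclear protein-coding loci only, a replicate block and leaving out each library. The fit was tested on simulated data.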

Additional observations from a re-analysis of the deposited data

Results flagged for a closer look

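Groups of 3 libraries are too small for a test of single libraries. Among the 7 tested genes of the set and the 52 tested genes of the iron lists, 3 list genes had every high light library on one side of every standard light library at 2 h and on the opposite side at 8 h. The difference between the times was not tested for any of them, and they were picked from 59 genes screened. How many of all tested loci change sides in this way was not counted, so the 3 cannot be called unusual. Of their 6 differences between light levels, 1 passed the edgeR test, ILR3 at 8 h (adjusted p = 0.0334), and it was lost whichever of the 6 libraries was left out. The others had an adjusted p of 0.189 (ILR3, 2 h), 0.112 and 0.104 (ABCI7, 2 h and 8 h), and 0.121 and 0.339 (SUFE1, 2 h and 8 h).

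ILR3 (AT5G54680), a helix-loop-helix regulator, averaged 28.5 ± 4.64 CPM in high light and 20.7 ± 2.07 CPM in standard light at 2 h, a difference of 7.76 CPM, and 16.1 ± 1.67 CPM and 24.4 ± 1.86 CPM at 8 h, a difference of -8.24 CPM. ABCI7 (AT1G32500), of the plastid SUF assembly machinery, averaged 62.2 ± 4.19 CPM in high light and 87.3 ± 11.8 CPM in standard light at 2 h, a difference of -25.1 CPM, and 83.2 ± 3.38 CPM and 62.9 ± 5.34 CPM at 8 h, a difference of 20.3 CPM. SUFE1 (AT4G26500), an activator of cysteine desulphurases, averaged 15.6 ± 1.73 CPM in high light and 21.7 ± 2.90 CPM in standard light at 2 h, a difference of -6.01 CPM, and 23.8 ± 1.2 CPM and 20 ± 1.70 CPM at 8 h, a difference of 3.80 CPM. The ribosomal RNA share was 23.0 ± 3.59% in high light and 5.38 ± 2.75% in standard light at 8 h, and 1.78 ± 2.77% in high light and 11.6 ± 6.44% in standard light at 2 h, so it too changes sides between these times; its part in these values was not tested.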

How the results depend on the processing

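Over the 7 tested genes of the 10, 282 of the values recomputed under alternatives kept their side of the threshold, 9 lost their call and 1 gained it. No value with a call in either fit changed direction, and a change of direction was not counted where neither fit passed. The DESeq2 call of FER2 is not among these values. For the calls of the iron lists, 459 values kept the call and 114 lost it (genes not called were not followed, so gains show only in the counts). No alternative removed the calls for NEET and NFS1 at 8 h, or for FER1, FRO6 and FRO7 against the dark. The 3 iron list calls at 2 h became 7 with no filter, 8 with DESeq2, 1 with the ribosomal RNA covariate, 1 with only the 2 groups compared and 1 without the smallest library and that richest in ribosomal RNA (an alternative chosen after seeing the data). The 5 calls at 5 h became 10 with no filter, 8 with DESeq2, 2 with only the 2 groups and 12 without those 2 libraries. With only the 2 groups, the 3025 calls at 8 h became 6455 and the 7 of the iron lists 17. The cause was not tested. Leaving out 1 library gave 1665 to 2610 calls for high against standard light at 8 h, with 1 to 2 of the 10 genes; 6879 to 8026 for 8 h of standard light against the dark, with 4 to 5; and 7825 to 8834 for 8 h of high light against the dark, with 5 to 6. The iron lists then had 0 to 2 calls at 2 h, 2 to 10 at 5 h, 1 to 6 at 8 h and 18 to 23 against the dark.

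Libraries with the same replicate number did not deviate together (correlations of -0.0986 to 0.0859 over 15 pairs), and 9 of 30 libraries, each counted once per comparison, correlated best with their own number. Pairing by number was thus not seen, but with 3 libraries per group a weak pairing could be missed. With a replicate block VTL1 against the dark had an adjusted p of 0.0555, the 3 iron list calls at 2 h became 0, the 5 at 5 h became 7, and the 3025 at 8 h became 2910. On library totals of nuclear protein-coding counts, CPM were 1.76 times higher in the dark and 2.38 times higher in high light at 8 h. Small differences from the dark in CPM, and the order and overlap of groups near it, therefore depend on the scaling. Depth limits FER2, BHLH38 and BHLH39, which had at most 24 counts in a library.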
